A study of Mus musculus with 32 samples.

Results

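Voltage-gated sodium and calcium channels, HCN pacemaker channels, TRP channels, P2X receptors and the acid-sensing and epithelial sodium channels were followed across brain region, nerve injury and loss of the cholecystokinin B receptor. The genes were chosen by symbol alone: a probe set belonged to them when its single annotated symbol named a subunit of 1 of these families. This gave 81 probe sets of 58 genes, out of 22626 probe sets other than controls and 12393 genes with a single symbol. They were 8 sodium channel alpha subunits, 1 sodium channel beta subunit, 9 calcium channel alpha1 subunits, 14 calcium channel alpha2delta, beta and gamma subunits, 2 HCN channels, 13 TRP channels, 6 P2X receptors and 5 acid-sensing or epithelial sodium channels. Trpc2 was left out with its 3 probe sets, and Scnm1 and Trpc4ap, which share the first letters of the symbols but are no channels, were left out with 1 probe set each.

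RNA levels were measured on an Affymetrix mouse expression array in tissue from mice deficient in Cckbr, the cholecystokinin B receptor (KO), and from control mice. Each mouse had either chronic constriction injury (CCI), a model of neuropathic pain made by tying loose ligatures on the sciatic nerve, or a sham operation. The 8 groups were midbrain of KO CCI, KO sham, control CCI and control sham mice, and medulla of the same 4 kinds of mice, with 4 arrays each and 32 arrays in all. The design gives 4 mice per combination of genotype and operation, with both regions taken from each mouse. Strain, sex, age, the time after surgery, the side of the tissue and the kind of Cckbr mutation were not given in the sources used here.

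Sodium channel alpha subunits carry the rising phase of the action potential, and their beta subunits set their gating and placement. Calcium channel alpha1 subunits form the pore through which depolarisation admits calcium, while alpha2delta and beta subunits bring these pores to the membrane and most gamma subunits expressed in brain serve as auxiliary subunits of AMPA receptors. HCN channels open on hyperpolarisation and shape resting potential and rhythmic firing. TRP channels and P2X receptors are cation channels opened by chemical, thermal or lipid signals and by extracellular ATP. In the pain system several of these families are known mainly from sensory neurons and spinal cord. The midbrain and the medulla hold the descending pathways that modulate pain.

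The authors deposited 1 linear intensity per probe set and array, from which a background had been subtracted. Array medians lay between 91.0 and 99.9, and 2.15% of the values were at or below 0. Differences are on the scale of log2(intensity + 16) after quantile normalization, on which folds understate the change of dim genes. Of the 58 genes, 33 had their brightest probe set above the dimmest 33.3% of the probe sets, which ended at an intensity of 46.7, and 25 lay within it. The dim genes included Scn10a and Scn11a of sensory neurons, Cacna1s of skeletal muscle and the epithelial channel genes Scnn1a, Scnn1b and Scnn1g, and also genes known from brain such as Cacna1b and Cacna1e. Intensities of different probe sets are not compared with each other. For a gene with several probe sets (20 of the 58) the brightest stood for the gene.

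The targeted gene followed the genotype labels: Cckbr read between -1.49 and 24.1 in the 16 KO arrays and between 122 and 200.2 in the 16 control arrays. Regional marker genes followed the region labels. Slc6a3, the dopamine transporter, had a lowest, median and highest intensity of 480.0, 570.4 and 762 in midbrain, against -11.2, 5.80 and 16.4 in medulla. Hoxa5, a hindbrain patterning gene, had 3.22, 21.1 and 30.2 in midbrain, against 261, 665 and 899.8 in medulla. Within a group, pairs of arrays had correlations of 0.962 to 0.989 across probe sets. On the first principal component of its region, the KO sham medulla 3 array lay at 60.6, and the KO sham midbrain 2 and 4 arrays at 36 and 26.4, apart from the other arrays. KO sham midbrain 2 also had the highest ratio of 3′ to 5′ Actb probe sets, a sign of RNA quality, at 1.60 on the log2 scale, against at most 0.733 on the other midbrain arrays. Counts of probe sets past the threshold are therefore also given without these 3 arrays, as are the single values named beside them.

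Promoters of 4 genes are shown first, as examples of opposed regional differences within a subunit family. Scn2a and Cacna2d1 were higher in midbrain, and Scn8a and Cacna2d3 were lower there. Other genes, among them Scn3b and P2rx5, differed more between the regions than Scn8a. Each line gives the 250 bases ahead of a RefSeq transcription start on GRCm38.p6, 5′ to 3′ on the gene's strand, with CpG dinucleotides in capitals. Scn2a was read on the plus strand at chr2:65620519-65620768, Scn8a on the plus strand at chr15:100870395-100870644, Cacna2d1 on the plus strand at chr5:15934441-15934690 and Cacna2d3 on the minus strand at chr14:29721865-29722114. Scn2a and Scn8a have 2 starts each in the RefSeq table, of which the more 5′ is shown. The annotated gene bodies of Scn8a, Cacna2d1 and Cacna2d3 begin 5′ of the whole window shown, so these windows lie inside the annotated genes.
Scn2a: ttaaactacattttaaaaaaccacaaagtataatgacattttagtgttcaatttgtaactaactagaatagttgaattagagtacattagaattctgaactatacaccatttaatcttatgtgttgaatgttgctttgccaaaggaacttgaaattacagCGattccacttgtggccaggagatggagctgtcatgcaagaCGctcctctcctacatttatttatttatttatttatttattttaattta
Cacna2d1: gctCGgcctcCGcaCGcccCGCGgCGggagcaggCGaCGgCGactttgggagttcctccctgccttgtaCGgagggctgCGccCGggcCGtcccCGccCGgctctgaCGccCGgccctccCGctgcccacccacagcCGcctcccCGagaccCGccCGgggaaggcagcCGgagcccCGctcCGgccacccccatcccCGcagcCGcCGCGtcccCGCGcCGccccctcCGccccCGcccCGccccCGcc
Scn8a: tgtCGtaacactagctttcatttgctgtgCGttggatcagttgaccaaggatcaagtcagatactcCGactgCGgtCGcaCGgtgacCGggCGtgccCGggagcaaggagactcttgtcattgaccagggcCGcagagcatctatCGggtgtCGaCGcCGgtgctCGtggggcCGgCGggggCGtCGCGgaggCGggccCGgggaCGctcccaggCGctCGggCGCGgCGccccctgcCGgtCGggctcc
Cacna2d3: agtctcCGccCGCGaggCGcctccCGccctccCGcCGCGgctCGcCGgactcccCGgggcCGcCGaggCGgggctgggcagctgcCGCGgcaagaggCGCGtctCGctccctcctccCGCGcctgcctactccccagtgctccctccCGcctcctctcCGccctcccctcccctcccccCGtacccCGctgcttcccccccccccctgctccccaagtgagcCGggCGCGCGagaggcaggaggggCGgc
The Scn2a window held 2 CpG dinucleotides and 29.6% G+C, with none of the 3 motifs searched. The Scn8a, Cacna2d1 and Cacna2d3 windows held 30, 36 and 30 CpG dinucleotides and 68.0%, 82.4% and 80.0% G+C. Over the RefSeq table's 32851 promoters the median was 6 CpG dinucleotides and 52.4% G+C, so 3 of the 4 windows were far richer in CpG than the median promoter and Scn2a was poorer. The windows of the 2 alpha2delta genes were alike in base composition, and those of the 2 sodium channel genes were not. A link between base composition and the regional differences was not tested. The Cacna2d1 window held the GC box GGGCGG 6 times on either strand and the Cacna2d3 window 4 times.

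Of the 58 genes, 47 had a promoter in the RefSeq table. The GC box GGGCGG was found on either strand in 5 of the 11 promoters of genes higher in midbrain, in 2 of the 5 of genes lower there, in 13 of the 31 of genes that did not pass the test, and in 32.7% of all promoters. The TATA box TATAAA was found in 2 of 11, 0 of 5 and 3 of 31, and in 12.4% of all promoters. The CCAAT box CCAAT was found in 3 of 11, 0 of 5 and 8 of 31, and in 33.8% of all promoters. No letters of one motif can stand for another. These counts are a description.

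The differences that passed the test among the channels lay between the regions. In midbrain against medulla, 14 of the 58 genes were higher, 6 were lower and 38 did not pass an adjusted p of 0.05 (limma's moderated test, adjusted by Benjamini and Hochberg over all 22626 probe sets). The higher genes were led by the sodium channel subunits Scn2a and Scn3b and the calcium channel subunits Cacna2d1, Cacng3 and Cacng5, at 1.5-fold to 1.80-fold, and included 3 alpha1 subunits. The lower genes were led by Cacna2d3 at 1.80-fold and by the ATP receptor P2rx5. As probe sets, 26 of 81 passed (32.1%), against 21.5% of all probe sets on the array, with 19 higher (23.5%, against 10.5% of all) and 7 lower (8.64%, against 11.0% of all). The median absolute log2 difference of the 81 probe sets was 0.14, against 0.09 for all probe sets, and the signed medians were 0.03 and 0.01.

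At an adjusted p under 0.05 and at least 1.5-fold, 9 of the 81 probe sets (7 genes) passed, against 1.81% of all probe sets. For 3 genes, Cacna2d1, Scn3b and Cacna2d3, the 16 midbrain arrays and the 16 medulla arrays did not overlap, which held for 1.47% of all probe sets. All 20 genes had the same sign in each of the 4 kinds of mice. They were called on the mean of these same 4 differences, which favours a shared sign. The share among all called probe sets was not counted. In bulk tissue, fewer cells that express a gene and less RNA per cell cannot be told apart.

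**Figure D1:**
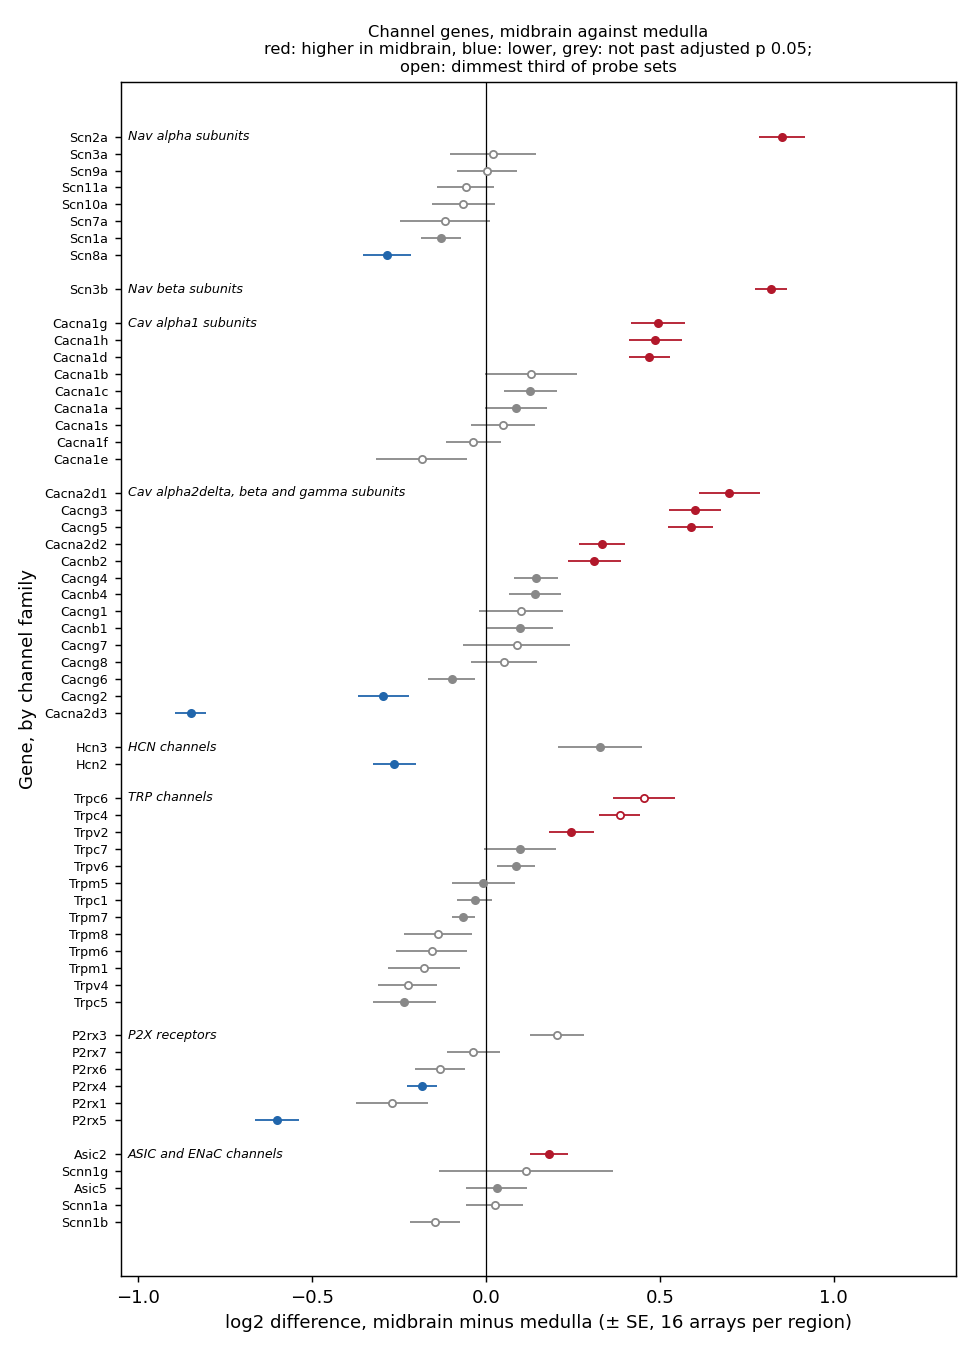
Log2 difference between midbrain and medulla (horizontal axis) for the brightest probe set of each of the 58 genes, grouped by family; lines are the difference ± SE (16 arrays per region), red genes were higher and blue genes lower in midbrain at an adjusted p under 0.05, grey genes did not pass, and open points lay in the dimmest 33.3% of probe sets. Scn2a (0.85), Scn3b (0.82) and Cacna2d1 (0.70) lie farthest to the right and Cacna2d3 (-0.85) farthest to the left.

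Among the sodium channel alpha subunits, 1 of 8 was higher in midbrain, 1 was lower and 6 did not pass the test. Scn2a encodes an alpha subunit of excitatory neurons that is found at axon initial segments and along unmyelinated axons; it lies at chr2:65620764-65767447. Its lowest, median and highest intensities were 906, 1295 and 1482 in midbrain, against 477, 725 and 977 in medulla. The difference was 0.85 (SE 0.07; 1.80-fold; adjusted p = 6.95e-11), with the midbrain higher in 16 of 16 mice. The regions overlapped through a single array on each side: control sham midbrain 1, at 906, lay below KO sham medulla 3, at 977. The same control sham mouse had the lowest medulla value, 477. A second Scn2a probe set gave a difference of 0.78 (adjusted p = 2.21e-06).

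Scn8a, the alpha subunit that predominates at nodes of Ranvier and mature axon initial segments, differed the other way. It lies at chr15:100869863-101045938, and had 874, 1139.8 and 1328 in midbrain, against 979, 1447 and 1716 in medulla. The ranges of the regions overlapped, though the medulla median lay above the highest midbrain value. The midbrain array was lower in 16 of 16 mice. The difference was -0.29 (SE 0.07; 1.22-fold lower; adjusted p = 0.00305), and the second probe set gave -0.40 (adjusted p = 0.0104).

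Scn1a, the alpha subunit best known from inhibitory interneurons, was bright in both regions and did not pass the test. It had 917, 1137 and 1632 in midbrain, against 1058, 1292 and 1648 in medulla, a difference of -0.13 (95% confidence interval -0.25 to -0.01; adjusted p = 0.118). The midbrain array was lower in 14 of 16 mice. Scn3a, Scn7a, Scn9a, Scn10a and Scn11a lay within the dimmest 33.3% in both regions, with midbrain medians of 12 to 24 and medulla medians of 12.6 to 26.7. Scn3a, Scn2a, Scn1a, Scn9a and Scn7a lie close together on chromosome 2, and of these 5 genes only Scn2a passed the test.

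Scn3b, a beta subunit that associates with sodium channel alpha subunits, was the 1 beta subunit with a member probe set. It lies at chr9:40269216-40291618. Its intensities were 522, 584 and 757 in midbrain, against 272, 336.5 and 387 in medulla. The regions did not overlap. The difference was 0.82 (SE 0.05; 1.76-fold; adjusted p = 1.13e-13), and a second probe set gave 0.40 (adjusted p = 0.00335). The midbrain array was higher in 16 of 16 mice.

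Among the calcium channel alpha1 subunits, 3 of 9 were higher in midbrain and none was lower, with a median difference of 0.13. Cacna1g and Cacna1h encode T-type channels, which open at low voltages and support burst firing. Cacna1g had 181, 223 and 296 in midbrain, against 117, 144 and 246 in medulla, a difference of 0.49 (SE 0.08; 1.41-fold; adjusted p = 1.85e-05). Cacna1h had 64.4, 97.5 and 122 in midbrain, against 46.5, 63.8 and 83.7 in medulla, a difference of 0.49 (SE 0.08; 1.40-fold; adjusted p = 1.86e-05). The midbrain array was the higher one in 16 of 16 mice for Cacna1g and in 15 of 16 for Cacna1h, although both genes overlapped between regions over arrays. The second Cacna1h probe set, dimmer than the first, gave a similar difference of 0.44 (adjusted p = 0.00199).

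Cacna1d encodes an L-type channel that opens at relatively negative voltages and is known for its part in the pacemaking of dopamine neurons. It had 77.3, 96.5 and 109.7 in midbrain, against 49.6, 62.8 and 87.3 in medulla, a difference of 0.47 (SE 0.06; 1.39-fold; adjusted p = 8.23e-07; higher in 16 of 16 mice). Its second, dim probe set gave 0.13 (adjusted p = 0.217), so the call rested on the brighter one. The other L-type gene of brain, Cacna1c, had medians of 56.9 in midbrain and 52.3 in medulla and a difference of 0.13 (95% confidence interval -0.03 to 0.28; adjusted p = 0.265). Cacna1a, the P/Q-type subunit of many presynaptic terminals, had medians of 217 and 203 in midbrain and medulla, and a difference of 0.09 (-0.10 to 0.27; adjusted p = 0.562). The N-type subunit Cacna1b and Cacna1e, Cacna1f and Cacna1s lay within the dimmest 33.3% and did not pass.

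The auxiliary calcium channel subunits held the opposed pair. Of 14 genes, 5 were higher in midbrain, 2 were lower and 7 did not pass. Cacna2d1, the alpha2delta subunit bound by gabapentin and pregabalin, lies at chr5:15934264-16374511. It had 105, 141 and 182 in midbrain, against 47.1, 82.2 and 102 in medulla. The regions did not overlap, though the margin between them was narrow. The difference was 0.70 (SE 0.09; 1.62-fold; adjusted p = 5.8e-07; higher in 16 of 16 mice), and a second probe set gave 0.71 (adjusted p = 0.00012).

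Cacna2d3, an alpha2delta subunit of the same family, lies at chr14:28904943-29722775. It had 209.7, 257 and 309 in midbrain, against 402, 477 and 528 in medulla. Every midbrain array lay below every medulla array. The difference was -0.85 (SE 0.04; 1.80-fold lower; adjusted p = 1.27e-14; lower in 16 of 16 mice). Cacna2d2, the other alpha2delta gene measured, had 545, 639 and 759 in midbrain, against 378, 519.8 and 695 in medulla, with a difference of 0.33 (SE 0.07; 1.26-fold; adjusted p = 0.000344). Its other 2 probe sets gave 0.01 and -0.01 (adjusted p = 0.975 and 0.98), so the probe sets of Cacna2d2 disagree.

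Cacng2, Cacng3 and Cacng5 encode members of the gamma family that accompany AMPA receptors. Cacng3 had 61.0, 118 and 150.3 in midbrain, against 50.2, 73.1 and 94.4 in medulla, a difference of 0.60 (SE 0.07; 1.52-fold; adjusted p = 4.9e-07; higher in 15 of 16 mice). Cacng5 had 137, 174 and 200.4 in midbrain, against 78.7, 113 and 142 in medulla, a difference of 0.59 (SE 0.07; 1.5-fold; adjusted p = 6.73e-08; higher in 16 of 16 mice). Cacng2, known as stargazin, was the gamma gene that went the other way, so AMPA receptor auxiliary subunits differed in both directions. It had 163, 218 and 294 in midbrain, against 202, 266 and 365 in medulla, a difference of -0.30 (SE 0.07; 1.23-fold lower; adjusted p = 0.00381; lower in 14 of 16 mice).

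Cacnb2, which encodes a cytoplasmic beta subunit, had 63.2, 108.0 and 136 in midbrain, against 44.9, 89.9 and 105 in medulla. The regions overlapped, and the difference was 0.31 (SE 0.08; 1.24-fold; adjusted p = 0.00293; higher in 15 of 16 mice). The beta subunit gene Cacnb4 was bright in both regions, with medians of 694 in midbrain and 634 in medulla, and a difference of 0.14 (95% confidence interval -0.01 to 0.30; adjusted p = 0.206; higher in 15 of 16 mice). Cacng1, Cacng4 and Cacng5 lie close together on chromosome 11, of which only Cacng5 passed, although its second, dim probe set gave 0.17 (adjusted p = 0.189). Cacng4 had a difference of 0.14 (0.01 to 0.27; adjusted p = 0.11). Cacng6, Cacng7 and Cacng8, which lie close together on chromosome 7, and Cacnb1 did not pass, with differences between -0.10 and 0.10. These are the values of the brightest probe sets. Dim probe sets had the opposite sign, at 0.13 for Cacng6 and at -0.03 and -0.06 for Cacnb1, and did not pass.

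**Figure D2:**
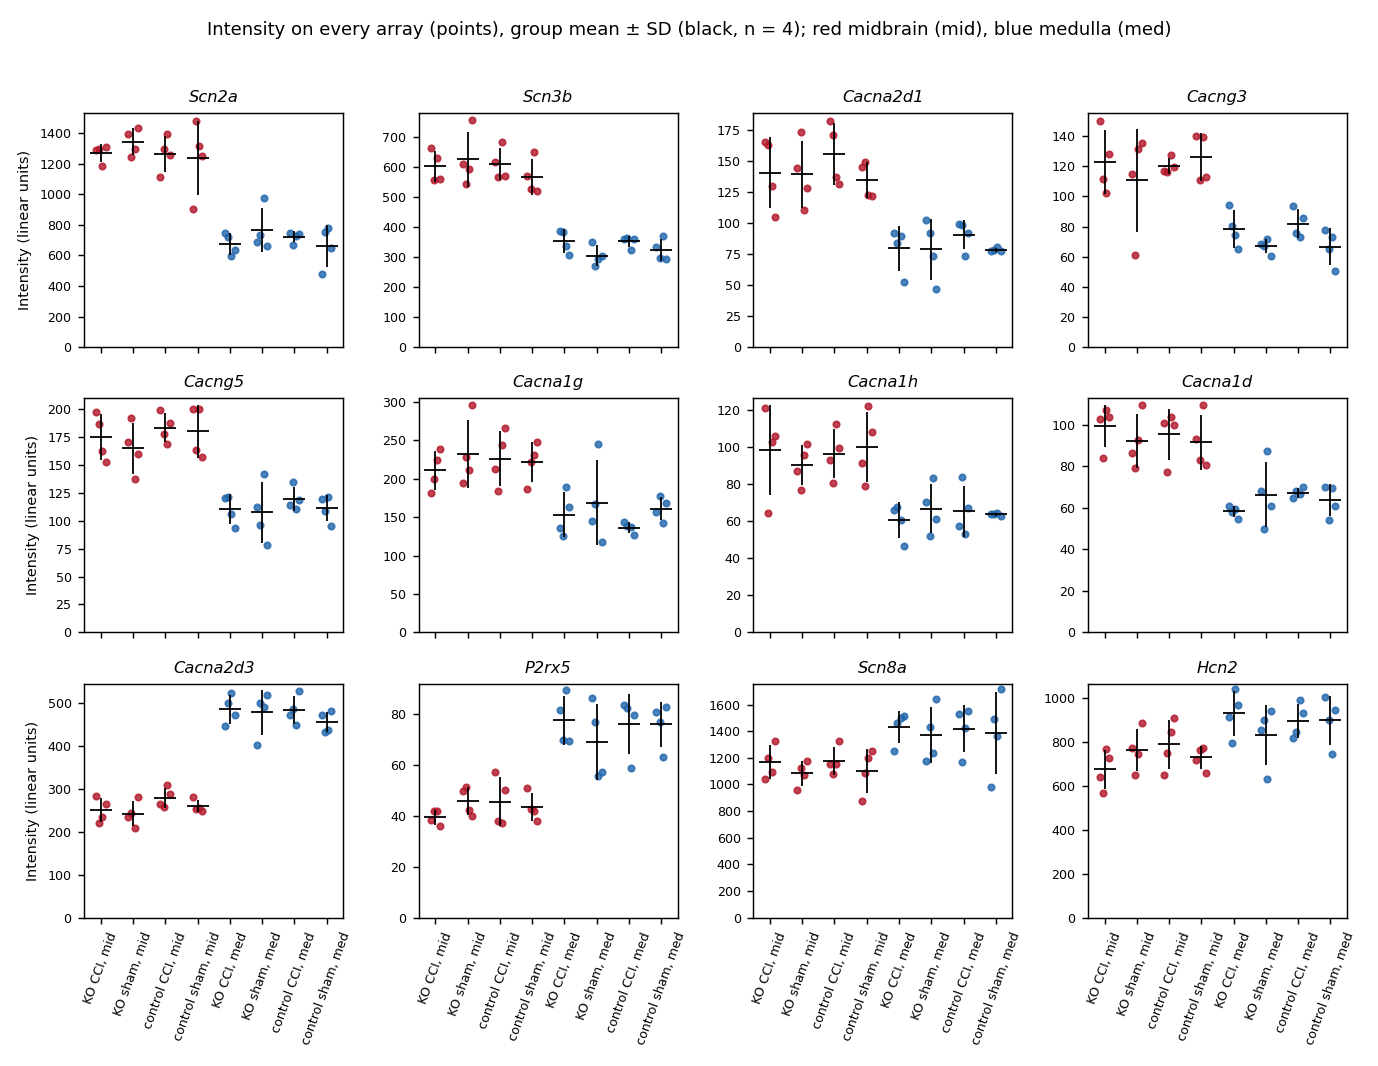
Deposited intensity, on a linear axis from 0, of 12 of the named genes in the 8 groups; points are single arrays, black marks are group means ± SD (n = 4), and the 4 midbrain groups (red) stand left of the 4 medulla groups (blue). Scn3b, Cacna2d1 and Cacna2d3 show no overlap between the 16 midbrain and 16 medulla arrays, while the ranges of Scn8a and Hcn2 overlap.

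Of the 2 HCN channels measured, Hcn2, a channel with slower gating that is widely expressed in brain, was lower in midbrain. It had 567, 748 and 910.4 in midbrain, against 634, 910.0 and 1044 in medulla, a difference of -0.26 (SE 0.06; 1.2-fold lower; adjusted p = 0.00193; lower in 14 of 16 mice). Hcn3 had 42.3, 87.3 and 123 in midbrain, against 39.3, 65 and 104 in medulla. Its difference of 0.33 (95% confidence interval 0.08 to 0.58) was larger than that of Hcn2 but varied more between arrays and fell just short of the threshold (adjusted p = 0.052).

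Of the 13 TRP channel genes, 3 were higher in midbrain and 10 did not pass. Trpc4 and Trpc6 encode cation channels opened downstream of phospholipase C. Trpc4 had 23.4, 36.9 and 50.3 in midbrain, against 18.8, 23.9 and 29.0 in medulla, with a difference of 0.38 (SE 0.06; adjusted p = 1.53e-05; higher in 16 of 16 mice), and a second probe set gave 0.27 (adjusted p = 0.00997). Trpc6 had 15.4, 21.4 and 28.6 in midbrain, against -2.08, 11.5 and 22.6 in medulla, with a difference of 0.45 (SE 0.09; adjusted p = 0.000295; higher in 15 of 16 mice). Both genes lay within the dimmest 33.3% in both regions, so no fold is given for them.

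Trpv2, a channel of the vanilloid subfamily, had 81.2, 107 and 134 in midbrain, against 46.7, 89.4 and 108 in medulla. The difference was 0.25 (SE 0.07; 1.19-fold; adjusted p = 0.00634; higher in 13 of 16 mice). The 4 kinds of mice contributed unequally, with differences of 0.01 in KO CCI, 0.57 in KO sham, 0.17 in control CCI and 0.24 in control sham mice; the lowest medulla value, 46.7, was that of the KO sham medulla 3 array. Trpc1, Trpc7, Trpm5, Trpm7 and Trpv6, above the dimmest 33.3%, had differences between -0.06 and 0.10 and did not pass. Trpc5 had medians of 88.2 in midbrain and 104 in medulla, and a difference of -0.23 (95% confidence interval -0.42 to -0.05; adjusted p = 0.0641). Trpm1, Trpm6, Trpm8 and Trpv4 lay within the dimmest 33.3% and had differences between -0.23 and -0.14 at their brightest probe sets. The second Trpm1 probe set, also dim, gave 0.38 (adjusted p = 0.151).

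Of the 6 P2X receptors, 2 were lower in midbrain, none was higher and 4 did not pass. P2rx5, an ATP-gated cation channel, had 35.9, 42 and 57.2 in midbrain, against 55.8, 78.5 and 89.5 in medulla. Only the ends of the ranges overlapped, and the midbrain array was lower in 16 of 16 mice. The difference was -0.60 (SE 0.06; adjusted p = 2.91e-08); no fold is given, since the midbrain mean lay within the dimmest 33.3%. P2rx4, the receptor known in pain research from microglia of the spinal cord, had 71.1, 93.5 and 107 in midbrain, against 90.5, 110.2 and 117 in medulla, a difference of -0.18 (SE 0.04; 1.14-fold lower; adjusted p = 0.00197; lower in 13 of 16 mice). Its second probe set gave -0.17 and did not pass (adjusted p = 0.0708). P2rx7, which lies close to it on chromosome 5, lay within the dimmest 33.3% and had a difference of -0.04 (adjusted p = 0.8). Dim P2rx1 and P2rx3 had differences of -0.27 (adjusted p = 0.0647) and 0.20 (adjusted p = 0.0621), and P2rx6, also dim, had -0.13 (adjusted p = 0.217).

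Asic2, a subunit of acid-sensing channels, was the 1 of 5 acid-sensing and epithelial sodium channel genes to pass. It had 179.5, 243 and 273 in midbrain, against 184, 212 and 229 in medulla, a difference of 0.18 (SE 0.06; 1.13-fold; adjusted p = 0.0183; higher in 13 of 16 mice). Asic5 was of like brightness in both regions, with medians of 109 in midbrain and 107 in medulla and a difference of 0.03 (95% confidence interval -0.15 to 0.21; adjusted p = 0.858). Scnn1a, Scnn1b and Scnn1g lay within the dimmest 33.3%. Scnn1g varied most within groups of all member probe sets (SD 0.75 on the log2 scale, against a median of 0.24 for the 81 probe sets and 0.21 for all probe sets), and its regional difference of 0.12 had a 95% confidence interval of -0.40 to 0.63.

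Several genes were represented by more than 1 probe set. Of these 20 genes, 10 had at least 1 probe set past the threshold, and in 6 of the 10 every probe set passed. The 4 in which probe sets disagreed in call were Cacna1d, Cacna2d2, Cacng5 and P2rx4. In the remaining 10 genes no probe set passed.

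The regional differences were then read in each kind of mouse separately. Of the 81 probe sets, 11 passed in KO CCI mice (background 4.76%), 10 in KO sham mice (7.11%), 11 in control CCI mice (4.37%) and 11 in control sham mice (3.21%). Scn2a had differences of 0.92, 0.82, 0.80 and 0.87 in these 4 kinds of mice in that order, and Cacna2d3 had -0.90, -0.95, -0.76 and -0.78. Scn3b stood at 0.76, 0.99, 0.76 and 0.77, and Cacna2d1 at 0.70, 0.73, 0.69 and 0.68. The spread of these 4 genes between kinds of mice was thus small beside the difference between regions.

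**Figure D3:**
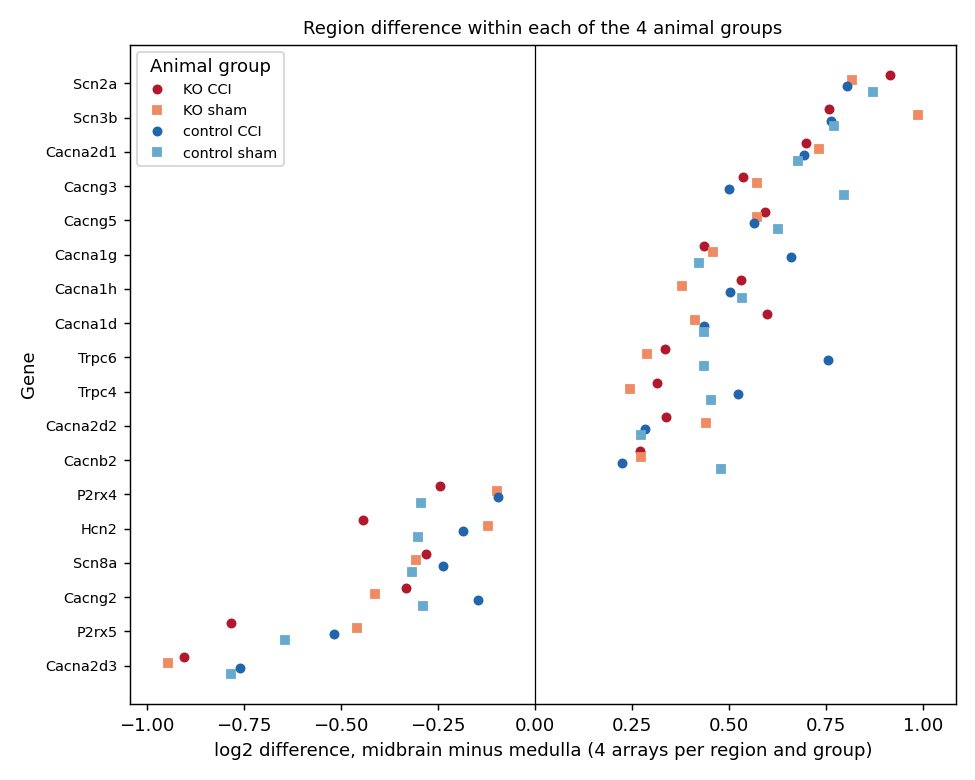
Log2 difference between midbrain and medulla of the 18 named genes in each of the 4 kinds of mice (4 arrays per region and kind of mouse), with 1 symbol per kind of mouse. Every gene shown keeps its sign in all 4, which selection on their mean favours, and Scn2a stays between 0.80 and 0.92.

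Whether the regional difference itself depended on genotype or on injury was tested as an interaction. No probe set of the channels passed for the region difference in KO minus in control mice (background 0.0%), and 0 of 81 had an unadjusted p under 0.05 (background 3.8%). No probe set passed for the region difference in CCI minus in sham mice (background 0.0%), where 4 of 81 had an unadjusted p under 0.05 (background 2.16%). The members of smallest p were Scn10a and Cacng1 for genotype (differences of -0.35 and 0.45, SE 0.18 and 0.24; adjusted p = 1.0 for both) and Scn11a and Trpv2 for CCI (-0.42 and -0.31, SE 0.16 and 0.13; adjusted p = 1.0 for both). Without the 3 arrays that stood apart, the CCI differences were -0.24 for Scn11a and -0.19 for Trpv2. Of these 4 genes, Trpv2 alone lay above the dimmest 33.3%.

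The array code in the sample descriptions may mark a batch and was spread over all groups. Within the arrays of the lower code 13 of the 81 probe sets passed (background 7.37%), 10 higher and 3 lower, and within those of the higher code 19 passed (background 9.79%), 15 higher and 4 lower. Without the 3 arrays that stood apart 30 passed (background 25.5%), 21 higher and 9 lower. With the mouse as a block 33 passed (background 27.1%), 22 higher and 11 lower, including all 26 of the fit without it. The calls given gene by gene come from the fit without the block. Some probe sets that did not pass there therefore passed with the block.

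Other cell type markers also differed between the regions, and their part in the channel differences was not tested. Of 16 pan-neuronal markers, 3 were higher in midbrain, 6 were lower and 7 did not pass, with a summed intensity of 25433 to 31899 in midbrain and 31453 to 36718 in medulla. The lowest sum of each region was in KO sham mice. In the other kinds of mice the sums began at 30346 in midbrain and 33464 in medulla. The neurofilament genes Nefm and Nefl were lower in midbrain by 0.52 and 0.45, Gap43 and Syt1 were higher by 0.72 and 0.87, and Rbfox3, a marker of neuronal nuclei, had a difference of -0.02 (adjusted p = 0.864). Of 10 oligodendrocyte markers, 6 were lower in midbrain and 1 was higher, with sums of 20713 to 23260.2 in midbrain and 23263 to 26751 in medulla. Of 10 astrocyte markers, 6 were lower and 1 was higher, with sums of 13102 to 14072 in midbrain and 14850 to 17536 in medulla. Of 11 microglia markers none passed, with sums of 3369 to 4391 in midbrain and 3542 to 4495 in medulla.

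Choroid plexus markers were lower in midbrain for 8 of 9 genes, and the remaining gene, Otx2, was higher there. Their sums varied greatly between arrays, from 415 to 5469 in midbrain and from 1064 to 11441 in medulla. Cerebellar neuron markers, of which 4 of 11 were lower and 1 higher, summed to 4227 to 5989.8 in midbrain and 5139.9 to 12571 in medulla. The sum of 12571 was in KO sham medulla, and the other medulla groups reached at most 7488. The dopamine neuron markers were higher in midbrain for 4 of 7 genes and lower for 1, with sums of 3527 to 4654 in midbrain and 2583 to 3109 in medulla. Cranial motor neuron markers were lower in midbrain for 4 of 5 genes, with sums of 126 to 227 in midbrain and 313 to 607 in medulla. Skeletal muscle markers summed to 169 to 295 in midbrain and 166 to 307 in medulla over 8 genes, with none past the threshold. Of 6 forebrain and hypothalamus markers, Lhx2 was higher in midbrain by 1.61 (adjusted p = 2.37e-14) and 5 did not pass. Of 10 meningeal and fibroblast markers, 2 were higher and 1 was lower. Of 10 endothelial and mural markers, 2 were higher and 2 were lower.

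Genes for proteins that bind, place or modulate these channels were read from a list of their own. Of 47 listed genes 27 were measured; 3 were higher in midbrain, 7 were lower and 17 did not pass, with a median difference of -0.04, against 0.01 for all genes. Fgf13, which encodes an intracellular regulator of sodium channels, had 1055, 1250.4 and 1394 in midbrain, against 747, 989 and 1202 in medulla (difference 0.34, SE 0.06, adjusted p = 4.6e-05). Its relatives Fgf11 and Fgf12 differed the other way: Fgf11 had a median of 109 in midbrain and 175 in medulla (-0.52, SE 0.09, adjusted p = 3.3e-05), and Fgf12 had 341 in midbrain and 390.0 in medulla (-0.21, SE 0.06, adjusted p = 0.00807).

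Nedd4l, a ubiquitin ligase that removes sodium channels from the membrane, had a median of 229 in midbrain and 181 in medulla (0.47, SE 0.09, adjusted p = 0.000234). Ryr3, an intracellular calcium release channel, had 124 in midbrain and 105 in medulla (0.21, SE 0.05, adjusted p = 0.00142). Cabp1, a calcium-binding regulator of calcium channels, had 144 in midbrain and 214 in medulla (-0.56, SE 0.08, adjusted p = 3.48e-06). Pex5l, the auxiliary subunit of HCN channels known as TRIP8b, was lower in midbrain, as Hcn2 was: it had 82.4 in midbrain and 133 in medulla (-0.42, SE 0.11, adjusted p = 0.00708). Gem, a small GTPase that inhibits calcium channels, lay within the dimmest 33.3% and was lower by 0.26 (adjusted p = 0.0443).

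Loss of Cckbr left no detectable change in the channels at this number of arrays. In midbrain no probe set passed for KO against control (background 0.0309%), and 7 of 81 had an unadjusted p under 0.05 (background 7.49%). In medulla none passed (background 0.053%), and 3 of 81 had an unadjusted p under 0.05 (background 3.36%). In both regions the share at the unadjusted level was near that of all probe sets. The median SE over the 81 probe sets was 0.11 in midbrain and 0.12 in medulla. Changes well above the size of the smaller regional differences could therefore be missed.

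The genes of smallest p in midbrain were Cacng6 and Cacna1c. Cacng6, a gamma subunit gene on chromosome 7, had 40.9, 45.4, 48.0 and 50.6 in KO CCI and 60.1, 55.8, 57.5 and 55.5 in KO sham mice, against 32.7, 31.3, 45.5 and 32.6 in control CCI and 34.1, 50.3, 48.1 and 39.3 in control sham mice. KO arrays overlapped with control arrays in CCI mice and lay above them in sham mice, for which no share over all probe sets was counted. The difference was 0.26 (SE 0.07; 95% confidence interval 0.11 to 0.40; adjusted p = 0.378). The second, dimmer Cacng6 probe set read 5.69 to 15.4 in KO and 4.98 to 19.5 in control midbrain arrays. Cacna1c had a difference of -0.23 (SE 0.09; -0.42 to -0.04; adjusted p = 0.585). Without the KO sham midbrain 2 and 4 arrays the differences were 0.24 for Cacng6 (adjusted p = 0.166) and -0.26 for Cacna1c (adjusted p = 0.24).

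In medulla the smallest p among the brightest probe sets of the genes belonged to Cacng2 and P2rx7. The second probe sets of Scn1a (0.45, SE 0.19) and Cacng6 (-0.22, SE 0.10, dim) had a smaller p than P2rx7 and did not pass. The brighter ones gave 0.07 for Scn1a and 0.15 for Cacng6. Cacng2 had 365, 342, 264 and 243 in KO CCI and 306, 282, 303 and 341 in KO sham mice, against 325, 247, 262 and 236 in control CCI and 202, 266, 244 and 266 in control sham mice. The groups overlapped, and the difference was 0.24 (SE 0.09; 95% confidence interval 0.04 to 0.44; adjusted p = 1.0). P2rx7 lay within the dimmest 33.3% and had a difference of 0.19 (SE 0.10; -0.01 to 0.40; adjusted p = 1.0).

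CCI likewise left no channel gene past the threshold in either region or genotype. In midbrain, none of the 81 probe sets passed in KO mice (background 0.0%) or control mice (background 0.0%), and 9 and 3 had an unadjusted p under 0.05 (background 8.23% and 3.0%). In medulla, none passed in KO mice (background 0.0%) or control mice (background 0.0%), and 4 and 2 had an unadjusted p under 0.05 (background 4.24% and 2.8%). For the genotype by CCI interaction none passed in midbrain or in medulla (background 0.0% for both), with 5 and 2 at the unadjusted level (background 5.48% and 2.67%). Each share lay near its background. Without the 3 arrays that stood apart, 0 of the 81 probe sets passed in each comparison of genotype or CCI and in both interactions with region. The median SE over the 81 probe sets was 0.16 for CCI in midbrain and 0.17 in medulla.

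In KO midbrain the genes of smallest p were Trpv2 and Cacnb2, which differed in opposite directions. Trpv2 had 106, 97, 90.5 and 81.2 in CCI mice, against 107, 134, 124 and 122 in sham mice, a difference of -0.36 (SE 0.11; 95% confidence interval -0.60 to -0.12; adjusted p = 0.601). Cacnb2 had 136, 122, 110.1 and 114 in CCI mice, against 95.7, 63.2, 105 and 90.8 in sham mice, a difference of 0.36 (SE 0.12; 0.11 to 0.61; adjusted p = 0.601). Neither gene overlapped between the 4 CCI and the 4 sham arrays. Both were picked by smallest p, and the share of all probe sets without overlap was not counted here. The sham arrays of this comparison include KO sham midbrain 2 and 4, which stood apart; KO sham midbrain 2 gave the highest Trpv2 and the lowest Cacnb2 value. Without these arrays the differences were -0.27 for Trpv2 (adjusted p = 0.672) and 0.22 for Cacnb2 (adjusted p = 0.706), and none of the 81 probe sets passed.

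In control midbrain the smallest p belonged to Cacna1c and Asic5. Cacna1c had 89.3, 60.3, 83.2 and 72.0 in CCI mice, against 51.1, 48.0, 59.5 and 54.5 in sham mice, a difference of 0.44 (SE 0.12; 95% confidence interval 0.17 to 0.70; adjusted p = 1.0), with no overlap. Asic5 had 90.5, 66.8, 92.2 and 84.3 in CCI mice, against 103, 114, 127 and 158 in sham mice, a difference of -0.49 (SE 0.19; -0.89 to -0.09; adjusted p = 1.0), also with no overlap. These genes too were picked by smallest p, without a counted share of all probe sets that lack overlap. In medulla the genes of smallest p lay within the dimmest 33.3%: P2rx6 and Cacna1s in KO mice (-0.43 and -0.41, SE 0.15 for both; adjusted p = 0.993 for both) and Cacng8 and Scnn1a in control mice (0.43 and -0.40, SE 0.18 and 0.17; adjusted p = 1.0 for both).

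For the difference in CCI response between KO and control mice, Cacnb2 and Cacna1c had the smallest p in midbrain. Cacnb2 had a CCI difference of 0.36 in KO and of -0.14 in control mice (interaction 0.50, SE 0.16, adjusted p = 0.822). Cacna1c had -0.00 in KO and 0.44 in control mice (interaction -0.44, SE 0.17, adjusted p = 0.822). In medulla the smallest p among the brightest probe sets belonged to the dim genes P2rx6 (interaction -0.59, SE 0.21) and Scn7a (0.72, SE 0.39), both with an adjusted p of 1.0. The second Scn3b probe set (0.60, SE 0.26) had a smaller p than Scn7a and did not pass, while the brighter one gave 0.08.

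**Figure D4:**
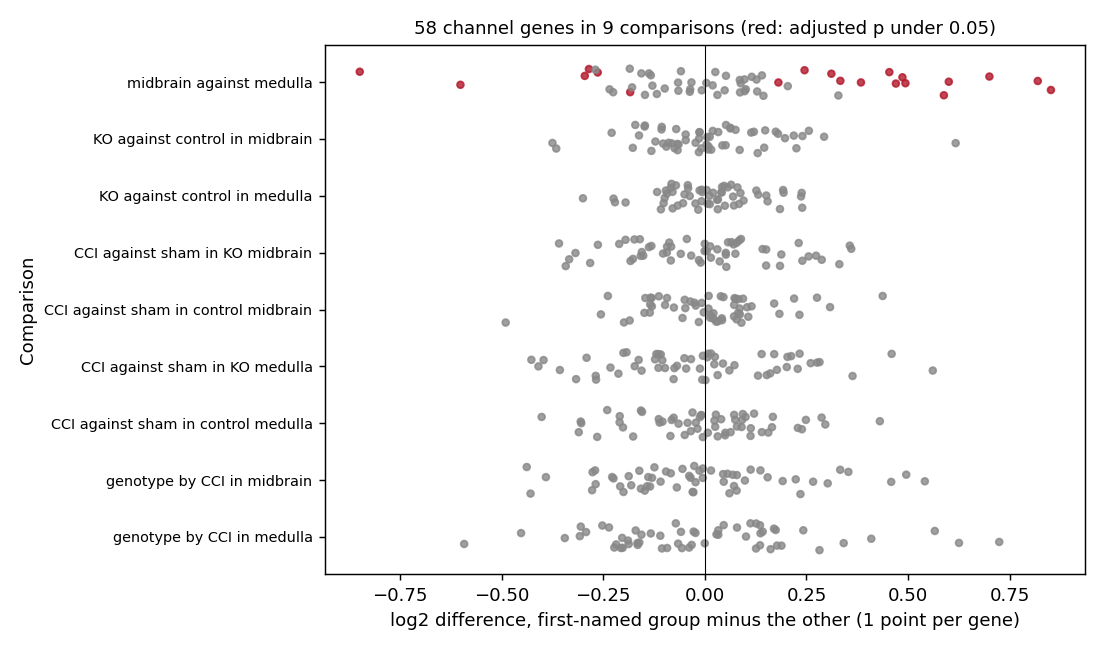
Log2 differences (horizontal axis, the group named first minus the other) of the 58 genes in 9 comparisons, with 1 point per gene, red at an adjusted p under 0.05. In midbrain against medulla 20 genes are red, and in the 8 comparisons of genotype and CCI none is.

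The channels most studied in neuropathic pain were read one by one. Of 19 such genes 13 were measured, and Scn8a, Cacna1h, Cacna2d1, Hcn2 and P2rx4 lay above the dimmest 33.3%. None passed the test in any of the 4 CCI comparisons. The intervals below give the sizes of change that these arrays leave possible at the brightest probe set of each gene, unless another is named.

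Cacna2d1 is known to rise in sensory neurons after nerve injury. In midbrain it had 165, 163, 129.7 and 105 in KO CCI mice, against 144, 173, 109.98 and 128 in KO sham mice, and 182, 171, 137 and 131 in control CCI mice, against 145, 149, 123 and 122 in control sham mice. The differences were -0.01 (95% confidence interval -0.36 to 0.34) in KO and 0.17 (-0.18 to 0.52) in control mice. In medulla they were 0.02 (-0.36 to 0.41) and 0.16 (-0.23 to 0.54). CCI and sham arrays overlapped in midbrain of both genotypes. The interval for control midbrain reaches no farther than 0.52, below the regional difference of 0.70.

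Scn8a had CCI differences of 0.08 (-0.17 to 0.34) in KO and 0.11 (-0.14 to 0.36) in control midbrain, and of 0.06 (-0.27 to 0.39) and 0.03 (-0.30 to 0.36) in medulla. Cacna1h had 0.05 (-0.28 to 0.38) in KO and -0.03 (-0.36 to 0.31) in control midbrain, and -0.10 (-0.41 to 0.21) and 0.01 (-0.30 to 0.32) in medulla. Hcn2 had -0.18 (-0.42 to 0.05) in KO and 0.09 (-0.15 to 0.32) in control midbrain, and 0.14 (-0.14 to 0.42) and -0.03 (-0.31 to 0.25) in medulla. The intervals of these 3 genes all span 0. Without the arrays that stood apart, the KO midbrain differences were 0.12 for Cacna2d1 and 0.19 for Scn8a, and the KO medulla differences were 0.02 for each of Scn8a, Cacna1h and Hcn2, and none of these passed.

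P2rx4 was measured most tightly of the 5, with a within-group SD of 0.11 on the log2 scale. In medulla of control mice it had 102, 111, 90.5 and 103 in CCI mice, against 115, 112, 112 and 113 in sham mice. All 4 CCI arrays were below all 4 sham arrays, and the difference was -0.15 (95% confidence interval -0.31 to 0.00; adjusted p = 1.0). In medulla of KO mice it was -0.01 (-0.17 to 0.14), and in midbrain -0.16 (-0.37 to 0.06) in KO and 0.04 (-0.17 to 0.26) in control mice. The second P2rx4 probe set had the opposite sign in control mice. It gave 0.11 (-0.10 to 0.33) in medulla and -0.14 (-0.49 to 0.20) in midbrain. For the lack of overlap in control medulla, no share over all probe sets was counted.

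The other 8 genes of the list, Scn3a, Scn9a, Scn10a, Scn11a, Cacna1b, Trpm8, P2rx3 and P2rx7, lay within the dimmest 33.3%. Their CCI differences ran from -0.33 to 0.29 in KO and from -0.24 to 0.07 in control midbrain, and from -0.17 to 0.28 in KO and from -0.21 to 0.14 in control medulla. Without the arrays that stood apart, Cacna1b reached 0.73 in KO midbrain, and in KO medulla Scn3a had 0.46, Cacna1b 0.38 and Trpm8 -0.36, and none of these passed. Such dim values carry little information about a change.

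**Figure D5:**
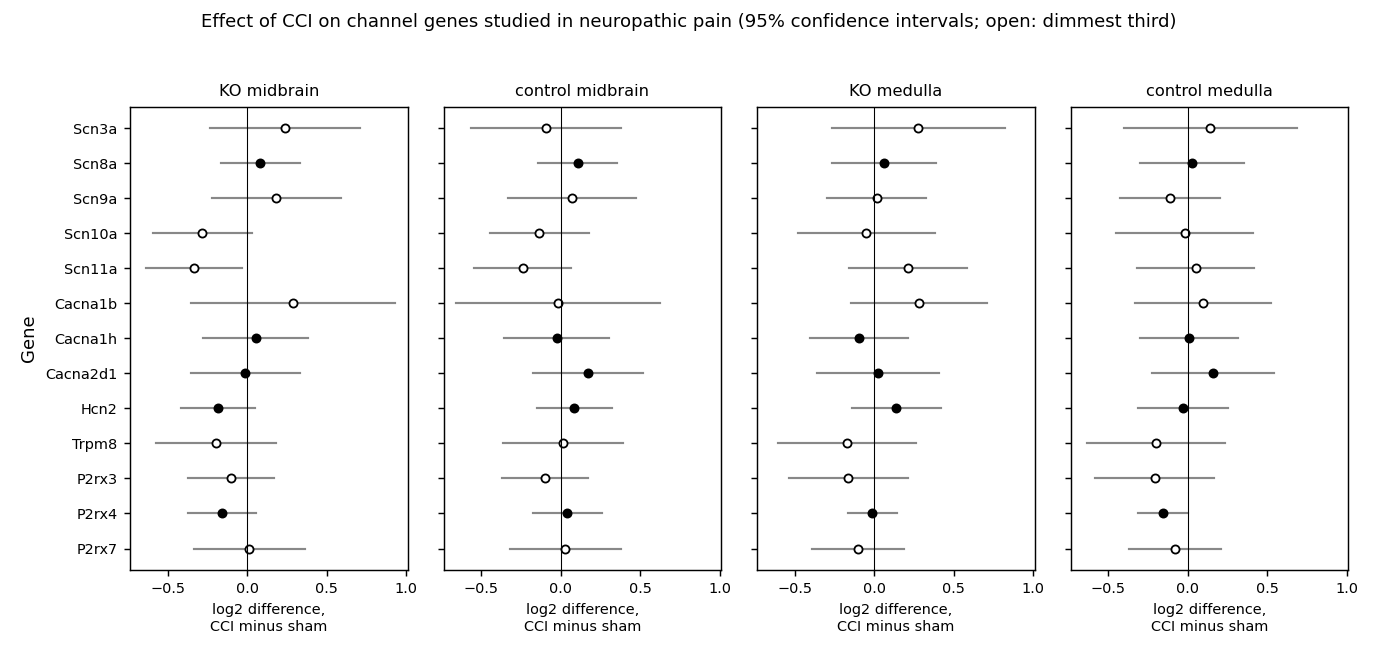
Log2 difference between CCI and sham mice of the 13 measured genes studied in neuropathic pain, in each region and genotype; lines are 95% confidence intervals (4 arrays per group) and open points lay in the dimmest 33.3% of probe sets. No gene passed an adjusted p of 0.05 in any of the 4 comparisons, and P2rx4 has the narrowest intervals of the 5 brighter genes.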

How the data were processed

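The authors deposited 1 intensity per probe set and array on a linear scale, background-subtracted and brought to a common scale, since negative values occur and array medians agree closely; the software, its version and the scaling method were not given in the sources used here. Per the labels' protocols, RNA came from a TRIzol extraction, and 4 ug went into biotinylated cRNA. After flooring at 0 and adding 16, log2 values were quantile-normalized. The 64 control probe sets were left out and the other 22626 tested, with no filter on brightness. Symbols came from the platform annotation, updated by gene identifier through the RefSeq annotation of GRCm38.p6, which matched all 81 probe sets and changed 0 symbols.

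Linear models with a mean for each group were fitted with limma 3.58.1 in R 4.3.3 (lmFit, then eBayes), on all 32 arrays for comparisons between regions and on the 16 arrays of a region otherwise. P-values are for both tails and were adjusted by Benjamini and Hochberg over all probe sets of a comparison, with a threshold of 0.05. Tables used Python 3.11.15 with pandas 2.3.3 and numpy 2.4.6, and figures matplotlib 3.10.9. The fitting was tested on simulated data. Members, gene lists and the naming rule were chosen with earlier results of these data known, and the hindbrain list and the omission of the arrays that stood apart were added after the data were seen. Up to 12 genes per direction past the threshold, by absolute log2 difference, were named between regions. Where no gene passed, the 2 of smallest p at their brightest probe set were named, and for CCI also the 13 measured genes studied in pain. Trpv2 and Asic2, past the threshold but beyond the first 12, and the genes that did not pass in the region comparison were named to account for every family.

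Neighbouring array numbers place a midbrain and a medulla array with the same mouse. Residuals of these 16 pairs correlated at 0.17 on average (-0.05 to 0.36). For KO sham 3 and 4 the title numbers disagree with the array numbers, which were followed. Title numbers do not pair mice across groups (mean residual correlation 0.07 in midbrain and 0.04 in medulla, lowest -0.12 and -0.17). No 2 arrays were identical. Alternatives were median centring, a pseudocount of 1 or 64, array weights, a trended robust variance, omission of the dimmest 33.3%, the array code as a block, each of 2 array codes alone, a replicate block by title number or by mouse, only the groups compared, and the omission of each array or mouse in turn.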

Additional observations from a re-analysis of the deposited data

Results flagged for a closer look

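Within groups of 4 arrays, 18 named genes gave 144 tests for a single array far from the other 3 (by Dixon's test), and 4 stood out, where chance gives about 1 in 20. Scn2a read 1185 on the KO CCI midbrain 3 array, against 1293 to 1309 on the other 3. Scn3b read 324 on the control CCI medulla 3 array, against 359.9 to 365 on the others. P2rx5 read 58.9 on the same control CCI medulla 3 array, against 79.8 to 83.9 on the others. Cacna1d read 77.3 on the control CCI midbrain 2 array, against 99.8 to 104 on the others. All 4 were the lowest of their group.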

How the results depend on the processing

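For midbrain against medulla, the 26 called probe sets became 13 with only the arrays of the lower code (10 higher and 3 lower, 11 of them shared), a fit that holds fewer arrays. Other settings gave 19 (only the higher code) to 33 (array weights), and 25 when the dimmest 33.3% was left out, which left 44 of the 81 to be tested. Omitting each mouse in turn gave 26 to 31, the highest without KO sham 3. With a replicate block the count was 33 by mouse and 31 by title number. Of 502 alternative values of the 18 named genes, 492 kept direction and side of the threshold and 10 fell short of it, all within a single code: Cacng3, Cacna1h, Trpc6, Trpc4, Cacnb2, Cacng2, Scn8a and P2rx4 with the lower code, Hcn2 and P2rx4 with the higher. None reversed. In the other 10 comparisons 0 probe sets were called under every setting, omission and replicate block; of 1966 alternative values of their named genes none passed, and 118 changed sign. Signal over background limits the 25 genes within the dimmest 33.3%, for which neither a fold nor the absence of a change can be read.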
